A study of Mus musculus with 11 samples.

Results

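The genes described here are 10 rapidly induced genes: the immediate early genes Fos, Fosb, Jun, Junb, Egr1, Ier2 and Atf3, the stress-induced growth arrest gene Gadd45b, and the inducible Hsp70 genes Hspa1a and Hspa1b. They were taken by name, and every probe set annotated with one of these symbols alone was used, which gave 15 of the 45101 probe sets on the array. After the filter on low values described below, 13 of those probe sets were tested, for 8 of the 10 genes, among 13614 genes tested in all. Fosb and Junb did not pass and are given by their levels only. Fos passed because of the urothelium arrays only.

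The tissue was laser capture microdissected kidney and ureter of wild-type CD-1 mouse fetuses at E15.5 (Theiler stage 23), with no treatment and no altered allele in any group. The groups were urothelium, the epithelial lining of the ureter (3 arrays), ureteral smooth muscle (3 arrays), cortical collecting duct (2 arrays) and early proximal tubule (3 arrays). Per the labels, each sample pooled approximately 50 sections from 5 kidneys, the fetal tissue was frozen, sectioned and stained before capture, and RNA went through 2 rounds of amplification. Nothing in the labels says whether the pools of one compartment came from separate litters, so p-values measure the spread between these pools.

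Immediate early genes are switched on within minutes of a growth signal or an insult, without new protein synthesis, through factors already bound at their promoters. Fos and Jun proteins pair to form AP-1, a transcription factor, and their mRNAs are short-lived. Inducible Hsp70 is a chaperone that refolds damaged proteins, and its genes are driven by heat shock factor 1. Both groups of genes are known to respond to tissue dissociation, warming and ischaemia as well as to signals in intact tissue.

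Promoters of the genes whose levels differed most between compartments are shown with the matches to common promoter motifs that they hold. Sequences are from RefSeq on the mouse GRCm38.p6 build, where 8 of the 10 genes had an entry, Egr1 and Ier2 being the exceptions. Each is 300 bases long, runs 5′ to 3′ on the gene's own strand and ends 50 bases into the transcript. Letters are in lower case with matches in capitals. The Fos promoter, at chr12:85473640-85473939 on the plus strand, held the cyclic AMP response element core TGACG from -129 to -125 and from -66 to -62, counted from the transcription start, and the TATA box TATAAA from -33 to -28. The Gadd45b promoter, at chr10:80929841-80930140 on the plus strand, held TATAAA from -46 to -41. The promoters of Hspa1b (chr17:34959189-34959488) and Hspa1a (chr17:34972107-34972406), both on the minus strand, each held a pair of heat shock element units, GAANNTTC, from -104 to -97.
Fos: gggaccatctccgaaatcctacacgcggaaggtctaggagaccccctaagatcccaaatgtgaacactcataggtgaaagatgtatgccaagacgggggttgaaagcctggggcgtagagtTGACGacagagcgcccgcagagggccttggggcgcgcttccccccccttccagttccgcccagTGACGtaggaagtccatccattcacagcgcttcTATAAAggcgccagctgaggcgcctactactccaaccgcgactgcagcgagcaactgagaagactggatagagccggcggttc
Gadd45b: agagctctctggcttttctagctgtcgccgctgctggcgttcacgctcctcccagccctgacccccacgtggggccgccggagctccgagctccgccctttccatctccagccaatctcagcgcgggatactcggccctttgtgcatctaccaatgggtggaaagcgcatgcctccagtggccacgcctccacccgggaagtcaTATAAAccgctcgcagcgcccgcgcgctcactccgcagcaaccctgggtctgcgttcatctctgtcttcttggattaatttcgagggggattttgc
Hspa1b: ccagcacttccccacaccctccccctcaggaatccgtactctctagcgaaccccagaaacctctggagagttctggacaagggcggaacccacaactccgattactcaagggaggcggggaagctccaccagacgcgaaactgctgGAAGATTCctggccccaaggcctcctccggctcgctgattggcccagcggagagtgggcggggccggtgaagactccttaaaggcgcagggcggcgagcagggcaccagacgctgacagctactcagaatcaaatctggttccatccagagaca
Hspa1a: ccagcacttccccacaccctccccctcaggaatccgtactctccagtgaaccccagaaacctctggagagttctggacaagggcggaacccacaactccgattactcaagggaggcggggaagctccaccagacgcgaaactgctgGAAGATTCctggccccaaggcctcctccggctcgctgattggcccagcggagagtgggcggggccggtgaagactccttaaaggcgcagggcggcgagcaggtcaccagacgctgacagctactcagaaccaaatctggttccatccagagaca

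The Hspa1a and Hspa1b promoters were identical at 296 aligned bases (98.7%). Searched on both strands, TGACG was in 4 of the 8 promoters (Fos, Fosb, Junb and Atf3) and in 20.8% of 32851 mouse promoters of this length. GAANNTTC was in 3 of the 8 (Jun, Hspa1a and Hspa1b) and in 7.86% of all promoters, and TATAAA was in 3 of the 8 (Fos, Junb and Gadd45b) and in 13.6%. The whole cyclic AMP response element TGACGTCA (1.79% of all promoters), which contains TGACG, the AP-1 site TGANTCA (7.81%), the other phase of the heat shock pair TTCNNGAA (8.52%), a 3-unit heat shock element (0.603%), which contains GAANNTTC, and the CArG box (1.63%) were in 0 of the 8. These are matches of letters in this window and show no binding. Sites further upstream, and those of Egr1 and Ier2, were not searched, so 0 matches do not show that a gene lacks the motif.

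Levels are given as log2(signal + 55), where the signal is the deposited linear intensity and 55 is the rounded 20th percentile of the table. A signal of 0 would stand at 5.78, and the median probe set stood between 8.24 and 8.83 depending on the array. A probe set was tested when it lay above its own array's median in at least 2 arrays. Each gene was tested through its brightest probe set with limma. A gene was called where its Benjamini-Hochberg adjusted p over all 13614 genes was under 0.05 and its difference was at least 1 on the log2 scale. In captured bulk tissue, a lower signal from fewer expressing cells and one from less RNA per cell cannot be told apart. Levels of different probe sets are not compared with each other.

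**Figure D1:**
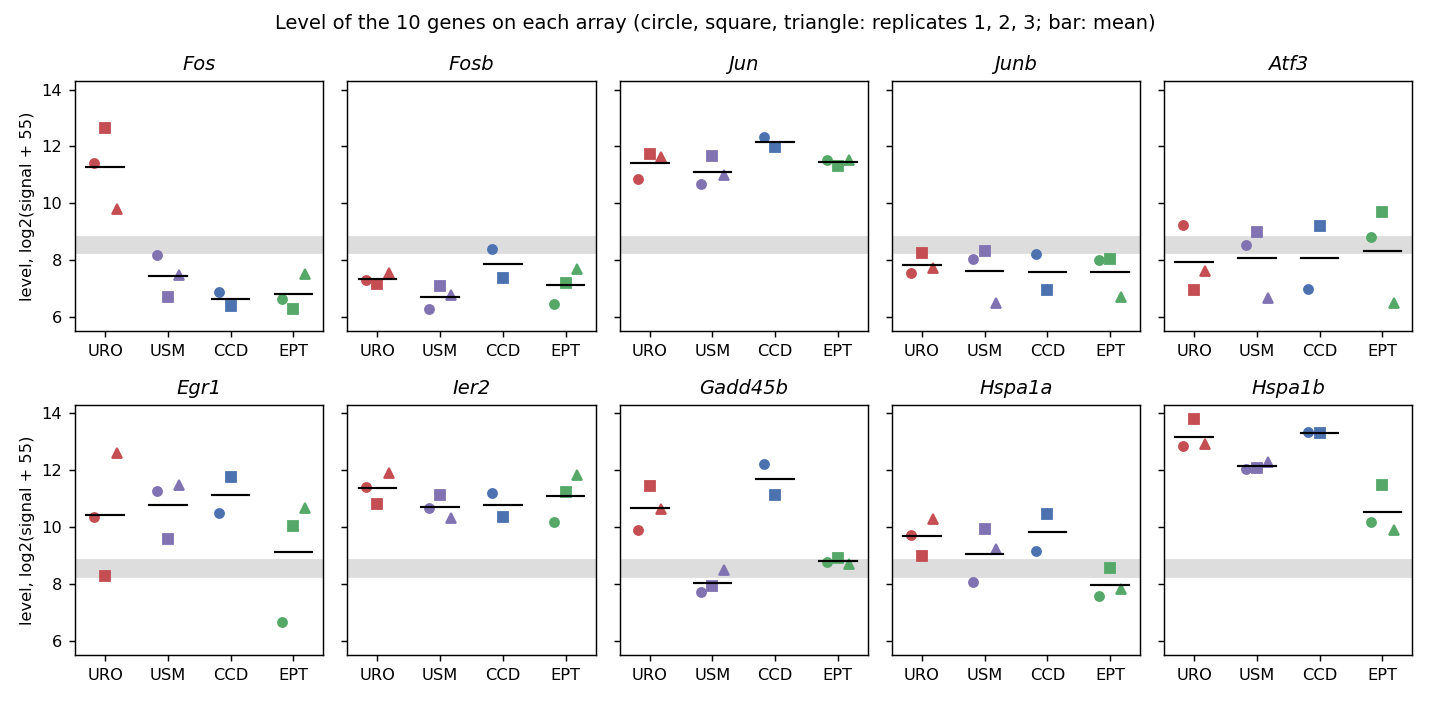
Level of each of the 10 genes on each array, as log2(signal + 55), in urothelium (URO), ureteral smooth muscle (USM), cortical collecting duct (CCD) and early proximal tubule (EPT). Each gene is shown by 1 probe set, symbols are replicates, bars are compartment means, and the grey band is the range of array medians from 8.24 to 8.83. The 3 Fos values of urothelium stand above all other Fos values, Gadd45b and Hspa1b differ between compartments, and Egr1 and Atf3 are scattered within compartments.

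All 4 compartments carried their own markers. Summed over 8 markers each, the signal was 22640 to 82190 for urothelial markers in urothelium arrays (1146 to 4748 in the others), 271900 to 341400 for smooth muscle markers in ureteral smooth muscle, 88780 to 96550 for duct markers in cortical collecting duct and 135600 to 191300 for tubule markers in early proximal tubule. Of the 8 markers, those above the array median in every array of their compartment numbered 7, 7, 8 and 8 in that order of compartments. The urothelium arrays also carried smooth muscle markers at 11170 to 71610, against 2832 to 6427 in the 2 kidney compartments, and duct markers at 28690 to 51890. Tubule markers summed to 2407 to 10540 in urothelium and 2965 to 8875 in cortical collecting duct. Summed leukocyte markers (6 genes) were 1587 to 3724 in urothelium, 1403 to 2153 in ureteral smooth muscle, 3701 to 8191 in cortical collecting duct and 2052 to 7345 in early proximal tubule, and summed endothelial markers (6 genes) were 1132 to 6082 in urothelium and 2238 to 5869 in the other 3. A date-like part of the labels, whose meaning is not stated, gives 4 label batches, none of which holds urothelium together with a kidney compartment. For Gapdh, urothelium replicates 1, 2 and 3 had 3′ to 5′ signal ratios, a sign of shortened RNA, of 16.7, 55.3 and 29.7, against a range of 6.79 to 25.9 elsewhere. Label batch 3 (cortical collecting duct replicate 2 with early proximal tubule replicates 2 and 3) had beta-actin 3′ signals of 7167 to 10236, against 24831 to 75054 for the remaining 8 arrays.

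Fos, which encodes the c-Fos subunit of AP-1, was high in urothelium and below the array median in every other array. On its 1 probe set (1423100_at) the urothelium arrays read 11.41, 12.64 and 9.81. Ureteral smooth muscle read 8.17, 6.70 and 7.47, cortical collecting duct 6.89 and 6.38, and early proximal tubule 6.64, 6.29 and 7.52. Every urothelium array lay above all 8 others, and the groups did not overlap. In raw signal the urothelium arrays held 2665, 6324 and 839, and the other 8 held 23.4 to 233.

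The Fos difference between urothelium and the mean of the other 3 compartments was 4.32 ± 0.53 (SE) on the log2 scale, 20-fold on the signal + 55 scale (limma adjusted p = 0.00109). Fos passed the filter through the urothelium arrays only, and with no filter the limma adjusted p was 0.00141. The Fos difference was the 1 call among the 8 genes in urothelium, where 2.37% of all genes were called in either direction. Other pseudocounts gave 4.99 with 12 and 3.33 with 190. The call was kept in 21 of 22 alternative settings, and with label batch as a fixed block the difference was 3.49 (adjusted p = 0.457). With that block 0 of 13614 genes were called in urothelium, so the lost call is not particular to Fos. That block leaves urothelium compared with the kidney compartments only through ureteral smooth muscle.

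Against single compartments, Fos was higher in urothelium by 4.65 ± 0.71 than in cortical collecting duct (adjusted p = 0.0175), where 0.257% of all genes were called. The difference was 4.47 ± 0.64 over early proximal tubule (adjusted p = 0.00058, 11.5% of all genes called) and 3.84 ± 0.64 over ureteral smooth muscle (adjusted p = 0.00216, 7.96% called). The last of these was called in 22 of 22 alternatives, and it is the pair that shares label batches. Urothelium exceeded ureteral smooth muscle by 3.75 within batch 1 and by 3.24 within batch 2. The difference from early proximal tubule was not called with the fixed block (3.37, adjusted p = 0.429) or without label batch 3, which leaves 1 tubule and 1 duct array. The difference from cortical collecting duct was not called in 6 alternatives: with the block, without batch 3, and without either duct array or urothelium replicate 1 or 2. With the block 0 of 13614 genes were called for this pair, and leaving out batch 3 or a duct array leaves 1 duct array.

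The order of Fos levels was urothelium (11.28 ± 1.42, SD, n = 3), ureteral smooth muscle (7.45 ± 0.74, n = 3), early proximal tubule (6.82 ± 0.63, n = 3) and cortical collecting duct (6.63 ± 0.36, n = 2). The lower 3 did not differ beyond their spread. Ureteral smooth muscle stood 0.63 ± 0.64 above early proximal tubule (adjusted p = 0.543) and 0.82 ± 0.71 above cortical collecting duct (adjusted p = 0.593), and cortical collecting duct stood at -0.18 ± 0.71 relative to early proximal tubule (adjusted p = 0.939). Both ureter compartments together exceeded both kidney compartments by 2.64 ± 0.48 (adjusted p = 0.0026), the 1 call among the 8 genes in that comparison, where 13.4% of all genes were called. It was 1.70 with the fixed block (adjusted p = 0.785), where 0 of 13614 genes were called. Without label batch 3, which leaves 1 array in each kidney compartment, it was 2.61. It was called in neither. Whether the 3′ to 5′ ratio, highest in the urothelium array with the most Fos, has a part in these differences was not tested.

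Fosb, a close relative that also pairs with Jun, showed no such pattern. Its probe set read 7.29, 7.17 and 7.53 in urothelium, 6.28, 7.09 and 6.76 in ureteral smooth muscle, 8.38 and 7.36 in cortical collecting duct, and 6.46, 7.21 and 7.68 in early proximal tubule. No Fosb value reached its array's median, and the urothelium and duct values lay above the 3 of ureteral smooth muscle while all other pairs of compartments overlapped. The highest Fosb value was in a collecting duct array, not in urothelium.

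Jun, its main partner in AP-1, was bright in all 11 arrays. Its tested probe set (1448694_at) read 10.86, 11.74 and 11.62 in urothelium, 10.67, 11.65 and 10.999 in ureteral smooth muscle, 12.32 and 11.97 in cortical collecting duct, and 11.53, 11.31 and 11.52 in early proximal tubule. Both duct arrays were above the other 9, but the second Jun probe set (1417409_at) did not repeat this: it read 12.09, 11.40 and 12.25 in urothelium, 10.88, 11.46 and 10.69 in ureteral smooth muscle, 12.54 and 11.24 in cortical collecting duct, and 10.99, 11.17 and 10.74 in early proximal tubule. On neither probe set was Jun called in any compartment against the other 3, the probe-set fit giving 0.83 ± 0.40 (adjusted p = 0.522) and 0.60 ± 0.44 (adjusted p = 0.708) for cortical collecting duct. The whole range of Jun over the 11 arrays was 1.65 on the tested probe set, against 6.35 for Fos.

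Junb, an AP-1 subunit often opposed to Jun, stayed below the array median in all 11 arrays. It read 7.55, 8.25 and 7.74 in urothelium, 8.04, 8.32 and 6.48 in ureteral smooth muscle, 8.21 and 6.96 in cortical collecting duct, and 8.01, 8.04 and 6.71 in early proximal tubule. The compartment means lay within 7.58 and 7.84, and the values overlapped throughout.

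Atf3, a stress-induced factor that pairs with Jun, varied more within compartments than between them. It read 9.25, 6.95 and 7.62 in urothelium, 8.52, 8.99 and 6.67 in ureteral smooth muscle, 6.98 and 9.19 in cortical collecting duct, and 8.80, 9.69 and 6.49 in early proximal tubule. Each compartment held at least 1 array above its median and 1 under 7, and the 4 means lay within 7.94 and 8.33. Atf3 was not called in any comparison.

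Egr1, a zinc finger factor induced alongside Fos, had the highest spread within compartments of the 8 tested genes. It read 10.36, 8.29 and 12.59 in urothelium, 11.28, 9.56 and 11.47 in ureteral smooth muscle, 10.49 and 11.77 in cortical collecting duct, and 6.67, 10.05 and 10.65 in early proximal tubule. Within urothelium the highest array was 19.7-fold above the lowest on the signal + 55 scale, and within early proximal tubule 15.8-fold. The compartments overlapped and Egr1 was not called in any comparison. Ier2, a small nuclear protein of the same response, was bright in every array, between 10.19 and 11.88, with a mean of 11.37 ± 0.53 in urothelium, 10.71 ± 0.40 in ureteral smooth muscle, 10.78 ± 0.61 in cortical collecting duct and 11.08 ± 0.82 in early proximal tubule (SD), and was not called either.

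Fos, Egr1 and Ier2 did not move together between the urothelium arrays. Fos was highest in replicate 2 and lowest in replicate 3, whereas Egr1, Ier2 and Hspa1a were all lowest in replicate 2 and highest in replicate 3. On their tested probe sets Jun, Gadd45b and Hspa1b were, like Fos, highest in replicate 2, but they were lowest in replicate 1. Their other probe sets, and Atf3, were lowest in replicate 2. Over the 11 arrays, Pearson's r was -0.05 between Fos and Egr1, 0.27 between Fos and Ier2 and 0.36 between Egr1 and Ier2. These describe 11 arrays of 4 compartments that share label batches.

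The spread between arrays of one compartment separated the genes in another way. The residual SD around the compartment means (7 degrees of freedom) was 1.75 for Egr1 and 1.40 for Atf3 on the log2 scale, at percentiles 99.7 and 98.7 of all genes tested and at 99.6 and 97.9 of genes within 1 log2 unit of their mean level. The median of all genes was 0.58. Fos had 0.93 (percentile 87.2, and 76.9 among genes of like level) and Hspa1a 0.75 (73.2). Ier2 had 0.61, Gadd45b 0.55, Hspa1b 0.54 and Jun 0.39, at percentiles 55.9, 46.5, 43.4 and 17. Within urothelium, where its signal was above the array medians, Fos had an SD of 1.42, against 1.18 for Atf3 and 2.15 for Egr1, while its other 8 values lay nearer the floor. Urothelium replicate 3, with the lowest Fos and the highest Egr1, also differed in markers. All urothelial markers but Upk1a were lowest in it, with Upk1b at 11.54, against 14.26 and 13.81 in replicates 1 and 2. The duct marker Calb1 was 14.35, against 10.44 and 7.13, and the tubule marker Hnf4a 12.03, against 11.12 and 7.29. Other duct and tubule markers went either way. Whether the mix of cells has a part in this spread was not tested.

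**Figure D2:**
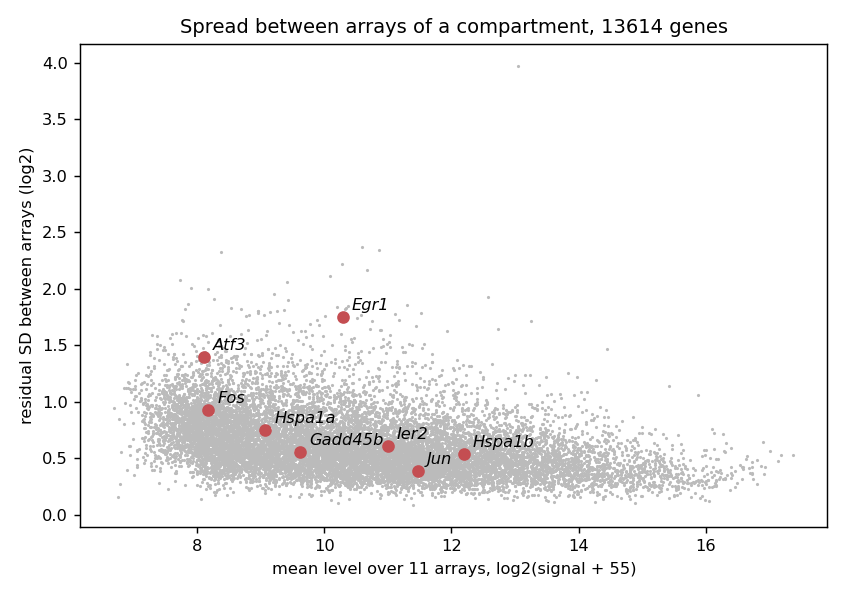
Residual SD between arrays of a compartment against mean level over 11 arrays, both on the log2(signal + 55) scale, for 13614 genes (grey) and the 8 tested genes (red). Egr1 at 1.75 and Atf3 at 1.40 stand at the upper edge for their level, and Jun at 0.39 lies below the median of 0.58.

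Gadd45b, whose protein binds stress kinase pathway members and cell cycle regulators, was high in cortical collecting duct and urothelium and low in ureteral smooth muscle. Its brightest probe set (1449773_s_at) read 9.90, 11.44 and 10.62 in urothelium, 7.70, 7.93 and 8.49 in ureteral smooth muscle, 12.23 and 11.12 in cortical collecting duct, and 8.78, 8.92 and 8.68 in early proximal tubule. The 3 muscle arrays lay below all 8 others, and the 3 tubule arrays lay between those of muscle and those of urothelium and duct. Duct and urothelium overlapped.

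Set against the other 3 compartments, ureteral smooth muscle was lower by -2.33 ± 0.38 (adjusted p = 0.000924), the 1 call among the 8 genes there, where 15.2% of all genes were called. It was called in 21 of 22 alternatives, and stood at -1.06 (adjusted p = 0.17) without probe sets of the shared types (suffixes x, s and a). Cortical collecting duct was higher by 2.51 ± 0.44 (adjusted p = 0.0109), also the 1 call among the 8, where 2.04% of all genes were called. The difference was 1.96 without duct replicate 1 (adjusted p = 0.229), 3.07 without duct replicate 2 (adjusted p = 0.0622) and 3.07 without label batch 3 (adjusted p = 0.16), none of them called, and in each of these 1 duct array is left and is assumed to vary like the other groups. It was 2.79 with label batch as a fixed block (adjusted p = 0.116) and 0.65 without probe sets of the shared types, not called in either. Early proximal tubule was lower by -1.33 ± 0.38 (adjusted p = 0.0319), a call lost in 9 of 22 alternatives, among them leaving out any 1 of its 3 arrays, smooth muscle replicate 3 or duct replicate 1. Urothelium stood at 1.15 ± 0.38 and was not called (adjusted p = 0.15).

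Between pairs of compartments, Gadd45b was lower in ureteral smooth muscle than in cortical collecting duct by -3.63 ± 0.51 (adjusted p = 0.000588, 8.27% of all genes called) and higher in urothelium than in ureteral smooth muscle by 2.61 ± 0.46 (adjusted p = 0.00305). It was higher in cortical collecting duct than in early proximal tubule by 2.88 ± 0.51 (adjusted p = 0.00443, 5.84% of all genes called) and in urothelium than in early proximal tubule by 1.85 ± 0.46 (adjusted p = 0.0193). Within label batches, duct exceeded tubule by 2.32 and 3.45, urothelium exceeded muscle by 2.54 and 2.20, and muscle stood at -4.30 relative to duct in the 1 batch that holds both. The call of duct over tubule was not kept without duct replicate 1 or label batch 3, and that of urothelium over tubule not without urothelium replicate 2, any 1 tubule array or label batch 3, with the block, or with the mean over probe sets. Without the x, s and a types none of these 4 pairs was called, and Gadd45b in urothelium stood at -0.04 relative to tubule. Muscle and tubule did not differ beyond their spread (-0.76 ± 0.46, adjusted p = 0.281), nor did urothelium and duct (-1.02 ± 0.51, adjusted p = 0.452).

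Of the other 2 Gadd45b probe sets, 1 gave the same order of compartments and 1 did not. Probe set 1450971_at read 9.17, 7.31 and 7.74 in urothelium, 6.28, 6.95 and 6.48 in ureteral smooth muscle, 9.60 and 8.59 in cortical collecting duct, and 6.78, 7.87 and 6.82 in early proximal tubule, with the same order of compartment means as the brightest probe set. In the probe-set fit it was lower in muscle than in the other 3 compartments by -1.54 ± 0.45 (adjusted p = 0.0496, 9.53% of all probe sets called) and lower in muscle than in duct by -2.52 ± 0.61 (adjusted p = 0.0311, 4.66% called). In duct it stood at 1.82 ± 0.52 and was not called (adjusted p = 0.169). This probe set passed the filter only through the 2 duct arrays and 1 urothelium array. Its muscle signals were 22.9, 68.2 and 34.2, and those of tubule replicates 1 and 3 were 55.2 and 58.0, all near the floor, which limits these differences. Probe set 1420197_at read 7.98, 7.86 and 8.22 in urothelium, 6.54, 6.20 and 8.53 in ureteral smooth muscle, 8.92 and 7.82 in cortical collecting duct, and 8.54, 7.97 and 7.66 in early proximal tubule, and was not called. Its values in smooth muscle replicates 1 and 2 also lay near the floor of the scale and its others near the array medians. With the s type left out, Gadd45b rested on 1420197_at and its difference in early proximal tubule was 0.24, the opposite direction. The files used here do not give the probes' positions.

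Hspa1a and Hspa1b, neighbouring genes for inducible Hsp70, were lower in early proximal tubule than elsewhere. Because the genes are near-identical copies, the signal cannot be assigned to one copy with certainty. On the brightest Hspa1b probe set (1452318_a_at) urothelium read 12.85, 13.78 and 12.90, ureteral smooth muscle 12.05, 12.08 and 12.28, cortical collecting duct 13.35 and 13.30, and early proximal tubule 10.18, 11.48 and 9.89. All 3 tubule arrays lay below the other 8, and the 3 muscle arrays lay between them and the urothelium and duct arrays. In raw signal the tubule arrays held 1103, 2804 and 896, against 4185 to 14061 in the others.

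The difference of early proximal tubule from the other 3 compartments was -2.36 ± 0.38 for Hspa1b (adjusted p = 0.000828). It was called in 20 of 22 alternatives and not with the fixed block (-2.42, adjusted p = 0.078) or without label batch 3 (-2.71, adjusted p = 0.0514). Hspa1a, with 1 probe set (1452388_at), read 9.73, 8.99 and 10.30 in urothelium, 8.07, 9.92 and 9.21 in ureteral smooth muscle, 9.17 and 10.47 in cortical collecting duct, and 7.57, 8.54 and 7.81 in early proximal tubule. The tubule overlapped only with smooth muscle replicate 1, and its difference was -1.54 ± 0.46 (adjusted p = 0.0358), a call lost in 10 of 21 alternatives, 8 of which leave out a single array: smooth muscle replicate 2 or 3, duct replicate 2, urothelium replicate 1 or 3, or any 1 tubule array.

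With Gadd45b, 3 of the 8 genes were called in early proximal tubule, all lower, where 15.9% of all genes were called in either direction and 6.41% lower. Because Hspa1a and Hspa1b are near-identical copies that may share signal, these are not 3 separate results. The median difference of the 8 was -1.43, against 0.05 over all genes. Fos stood at -1.64 there and was not called (adjusted p = 0.0513), and its tubule values overlapped those of collecting duct. In the probe-set fit, which adjusts over 29565 probe sets, the Gadd45b and Hspa1a probe sets were not called in the tubule (adjusted p = 0.0546 and 0.0578). Without label batch 3, which leaves 1 tubule and 1 duct array, 0 of the 8 were called, with Hspa1a at -1.73 (adjusted p = 0.361) and Gadd45b at -1.52 (adjusted p = 0.345). With the block 0 were called, with Hspa1a at -2.68 (adjusted p = 0.0536) and Gadd45b at -0.95 (adjusted p = 0.45).

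**Figure D3:**
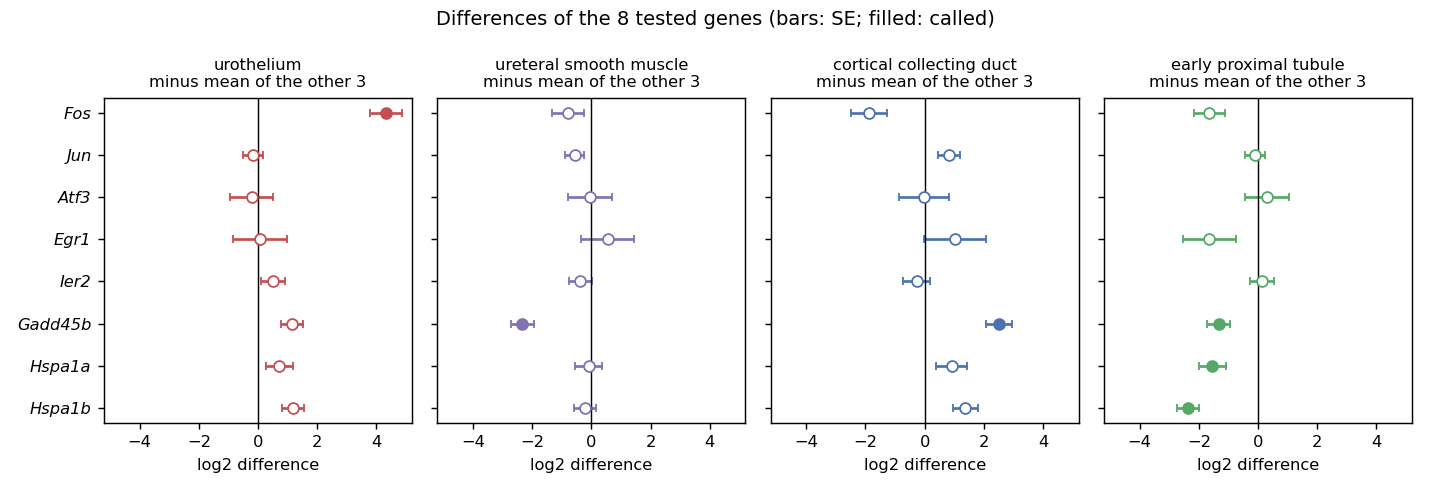
Log2 difference of each compartment from the mean of the other 3 for the 8 tested genes, with SE from the limma fit; filled points are called. Fos at 4.32 in urothelium, Gadd45b at 2.51 in cortical collecting duct and at -2.33 in ureteral smooth muscle, and Hspa1b at -2.36 in early proximal tubule are among the filled points.

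All 3 Hspa1b probe sets put early proximal tubule lowest. In the probe-set fit, where 9.81% of all probe sets were called in this comparison, the differences were -2.71 ± 0.41 on 1427126_at (adjusted p = 0.00116), -2.80 ± 0.34 on 1427127_x_at (adjusted p = 0.000255) and -2.36 ± 0.40 on 1452318_a_at (adjusted p = 0.00211). The tubule arrays read 7.75, 7.54 and 8.19 on 1427126_at, against 9.07 to 11.83 in the other 8, and 8.69, 8.85 and 8.41 on 1427127_x_at, against 10.30 to 12.38. On each of the 3 the groups did not overlap. The first of these probe sets has no x, s or a suffix, which does not show that it separates Hspa1b from Hspa1a.

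**Figure D4:**
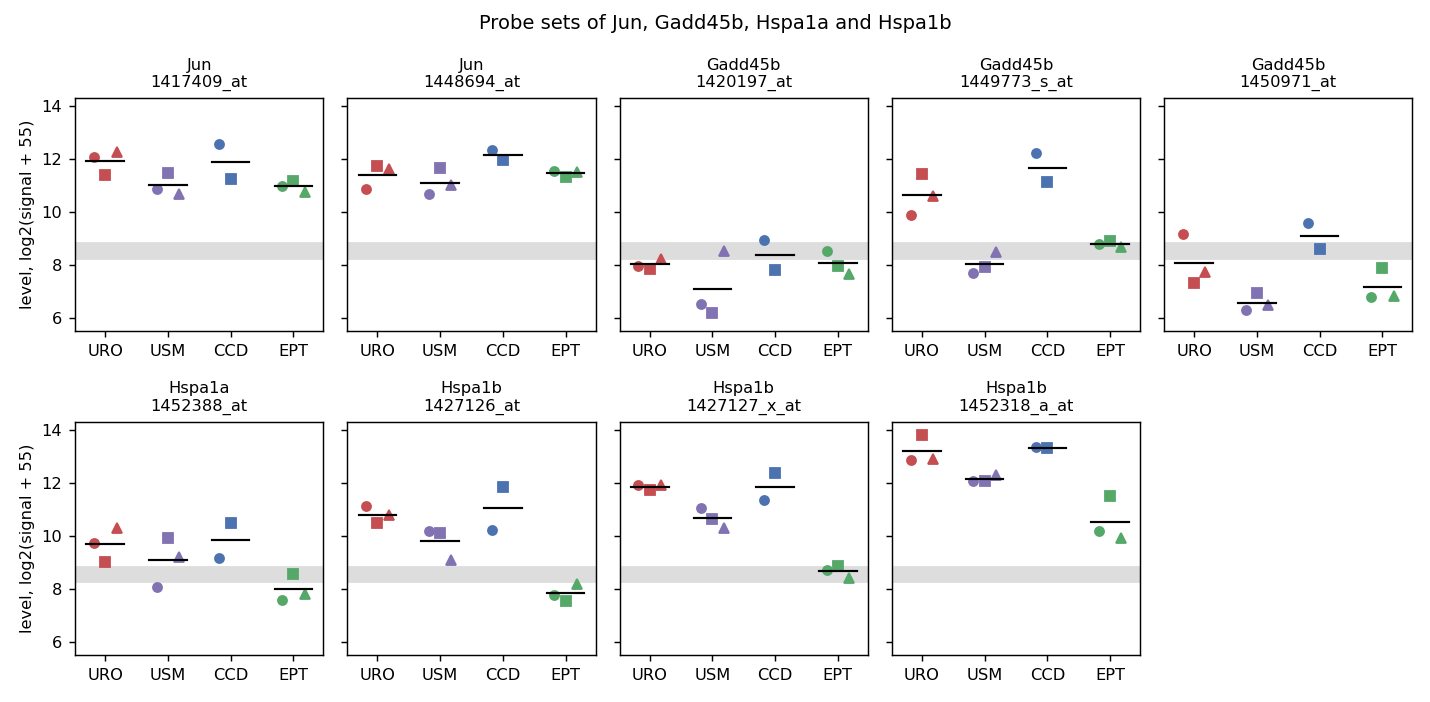
Levels of the 9 probe sets of Jun, Gadd45b, Hspa1a and Hspa1b on each array, as log2(signal + 55), in urothelium (URO), ureteral smooth muscle (USM), cortical collecting duct (CCD) and early proximal tubule (EPT). Symbols are replicates, bars are means and the grey band is the range of array medians. Early proximal tubule is lowest on all 3 Hspa1b probe sets, and Gadd45b probe set 1420197_at differs from the other 2.

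Against single compartments, Hspa1b was higher by 2.66 ± 0.45 in urothelium than in early proximal tubule (adjusted p = 0.00196), by 2.80 ± 0.51 in cortical collecting duct (adjusted p = 0.00452) and by 1.62 ± 0.45 in ureteral smooth muscle (adjusted p = 0.0215, where 20.4% of all genes were called). The duct exceeded the tubule by 2.61 and 3.17 within the 2 label batches that hold both, and muscle exceeded it by 1.90 in the 1 batch that holds both. For Hspa1a the within-batch differences were 2.29 and 1.59 for duct over tubule and 2.34 for muscle over tubule. The muscle call of Hspa1b was lost in 5 alternatives, among them without smooth muscle replicate 3 and without tubule replicate 1 or 3, the duct call without label batch 3, and the urothelium call with the block. Among the 3 higher compartments Hspa1b was not called in any pair, and the order ran cortical collecting duct (13.32 ± 0.04, SD, n = 2), urothelium (13.18 ± 0.53, n = 3), ureteral smooth muscle (12.13 ± 0.12, n = 3) and early proximal tubule (10.52 ± 0.85, n = 3).

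Other genes of the same responses were counted from lists of named genes, whose values in early proximal tubule against the other 3 compartments are plotted by list. Of 46 other immediate early genes, 41 were tested, and 1 was higher and 9 were lower in early proximal tubule, with a median difference of -0.58 against 0.05 over all genes, of which 9.53% were higher and 6.41% lower. Klf4, a Krüppel-like factor, was lower by -3.62 ± 0.45 (adjusted p = 0.000129), reading 7.67, 8.65 and 6.99 in the tubule and 9.34 to 12.98 elsewhere. Phlda1 was lower by -2.47 ± 0.41 (adjusted p = 0.00107) and the antiproliferative gene Btg1 by -1.87 ± 0.34 (adjusted p = 0.00191). With label batch as a block, 0 were higher and 2 lower, and without label batch 3, which leaves 1 tubule and 1 duct array and cuts the genes called here from 2169 to 138 over all genes, 0 were called. The count of lower genes was 4 to 9 with any 1 array left out, 4 without tubule replicate 1 and 5 without tubule replicate 3.

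**Figure D5:**
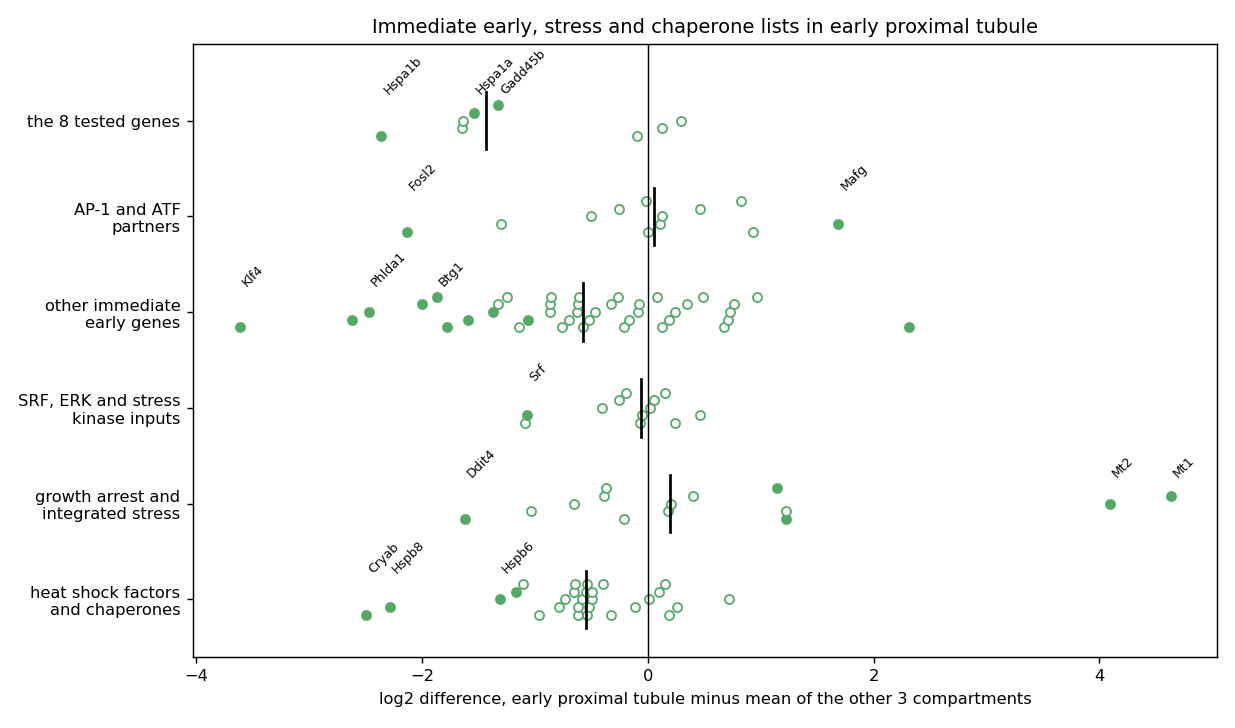
Log2 difference of early proximal tubule from the mean of the other 3 compartments for the 8 tested genes and 5 related lists; each point is a gene, filled points are called, black bars are medians, and names are those given in the text. The medians of the other immediate early genes (-0.58) and of the chaperones (-0.54) lie below 0, and Mt1 and Mt2 lie above 4.

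Among 28 tested heat shock factors and chaperones, 0 were higher and 4 were lower in early proximal tubule, with a median of -0.54. The 4 of 28 compare with 6.41% of all genes called lower and 15.9% called in either direction. The small heat shock proteins Cryab (-2.50 ± 0.39, adjusted p = 0.00072), Hspb8 (-2.29 ± 0.37, adjusted p = 0.000899) and Hspb6 (-1.31 ± 0.34, adjusted p = 0.0193) were among the 4, and 1 was lower with the block, 1 without label batch 3 (1 tubule array), and 2 without tubule replicate 2 or 3. Cryab read 5.89, 6.01 and 7.65 in the tubule and 8.51 to 9.57 in the other 8 arrays. The first 2 of these lie near the floor of 5.78, so the size of the Cryab difference depends on the pseudocount. Hspb8 and Hspb6 were highest in smooth muscle, 4.08 ± 0.37 (adjusted p = 1.1e-05) and 2.62 ± 0.34 (adjusted p = 0.000181) above the other 3 compartments. Their tubule values overlapped those of duct, with means of 8.32 in tubule and 8.70 in duct for Hspb8. For Hspb6 the means were 8.49 in tubule and 8.89 in duct. Their lower calls in the tubule thus do not set it apart from duct.

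Stress genes did not all run low in the tubule. The list of growth arrest and integrated stress response genes, 14 of them tested, also holds the metallothioneins Mt1 and Mt2. Of the 14, 4 were higher, Mt1 and Mt2 among them, and 1 lower in early proximal tubule, with a median of 0.19. Of all genes 9.53% were higher there and 6.41% lower. The metallothioneins Mt1 and Mt2, metal-binding proteins, were higher by 4.63 ± 0.35 and 4.09 ± 0.32 (adjusted p = 5.22e-06 and 5.22e-06), with Mt1 at 14.20, 14.69 and 13.80 in the tubule and 8.02 to 10.52 elsewhere. Ddit4, an mTOR inhibitor, was lower by -1.62 ± 0.34 (adjusted p = 0.00564). Among 12 tested AP-1 and ATF partners, Mafg was higher (1.69 ± 0.34, adjusted p = 0.00446) and Fosl2, another Fos family gene, lower (-2.14 ± 0.38, adjusted p = 0.00171) in the tubule. None of the 12 was called in urothelium, where Fos was, but only 2.37% of all genes were called there. Among 12 tested genes of the SRF, ERK and stress kinase inputs, Srf, the factor that binds CArG boxes, was lower by -1.07 ± 0.33 in the tubule (adjusted p = 0.0397). Its tubule values overlapped those of duct and urothelium, the means being 10.71 in tubule, 11.08 in duct, 11.21 in urothelium and 13.06 in smooth muscle.

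In ureteral smooth muscle 4 of the 41 other immediate early genes were higher and 1 lower, where 6.05% of all genes were called higher. The named ones were Ccn2, a matricellular protein (2.91 ± 0.33, adjusted p = 5.87e-05), Klf4 (2.76 ± 0.45, adjusted p = 0.000857) and Phlda1 (1.68 ± 0.41, adjusted p = 0.0127). Phlda1 values in muscle (11.67 to 12.38) overlapped those in urothelium (10.76 to 12.14), so its call does not set muscle apart from urothelium. Srf was higher there by 2.06 ± 0.32 (adjusted p = 0.000722), reading 12.98 to 13.21 in muscle and 10.41 to 11.59 elsewhere. Of the chaperones 3 were higher and 1 lower (Hspa4l, -1.20 ± 0.38, adjusted p = 0.0474), and of the growth arrest and stress genes 0 were higher and 4 lower, where 9.12% of all genes were lower, Mt2 at -3.50 (adjusted p = 1.23e-05), Mt1 at -3.06 (adjusted p = 6.55e-05) and the cell cycle inhibitor Cdkn1a at -2.11 (adjusted p = 0.000504) among them.

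In urothelium, where Fos was called higher, 0 of the 41 other immediate early genes were higher and 1, Ccn2, was lower (-2.06 ± 0.33, adjusted p = 0.00548). Of all genes, 1.65% were called higher there and 0.713% lower, so 0 of 41 is near the share of all genes. The small heat shock gene Hspb1 was higher there (1.69 ± 0.37, adjusted p = 0.0311) and was the 1 called of the 28 chaperones. In cortical collecting duct, where 2.04% of all genes were called in either direction, the 1 called gene of all 5 lists was Hspb8. It was lower by -1.77 ± 0.42 (adjusted p = 0.0499). The Hspb8 means were 8.70 in duct, 8.32 in tubule, 10.02 in urothelium and 13.09 in smooth muscle, so this call does not set duct apart from tubule.

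The genes tested whose levels over the 11 arrays were most like those of Fos were Grhl3 (r = 0.949), Upk1b (r = 0.946), Arl14 (r = 0.941), Anxa8 (r = 0.939), Plcd1 (r = 0.939) and Irx4 (r = 0.938). Upk1b, a uroplakin of the urothelial surface, averaged 13.20 ± 1.46 in urothelium and 7.47 to 8.94 over the other 3 compartments, and it is one of the markers summed above. Those most like Hspa1b were Cttnbp2nl (r = 0.972), Btg1 (r = 0.962), Tbx3 (r = 0.959), Efnb2 (r = 0.954), Hoxd8 (r = 0.951) and Med14 (r = 0.951). Tbx3, a T-box transcription factor, averaged 14.04 ± 0.90 in urothelium, 13.20 ± 0.10 in ureteral smooth muscle, 13.93 ± 0.33 in cortical collecting duct and 10 ± 1.06 in early proximal tubule (SD). These are the highest of 13614 correlations over arrays that share compartments and batches.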

How the data were processed

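Per the submitters' processing notes, the deposited intensity values, linear signals of 45101 Affymetrix probe sets, were made with GCOS (version not given in the sources used here). All 11 arrays had a mean of 1500 without the lowest and highest 2%, so the deposited scaling was kept. Probe set symbols came from GEO's platform annotation, of which 34945 had 1 symbol. Groups were read from sample labels.

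Intensities were taken to log2(signal + 55), which makes folds of dim genes smaller, and limma 3.58.1 (R 4.3.3) was fitted with 1 mean per compartment over all 11 arrays, leaving 7 residual degrees of freedom. Filter and thresholds are given above. The pipeline was tested on simulated data. The small number of arrays limits precision, and no detection calls were used. The genes, lists and tests were chosen with earlier results of these data known. Named genes were all 10 genes, the 6 genes most like Fos and the 6 most like Hspa1b, and, from each list and comparison with the other 3 compartments, up to 3 called genes with the largest moderated t. Endothelium, leukocyte, red cell, interstitium, podocyte and Schwann cell markers were also summed. Alternatives were quantile normalization, other pseudocounts and filters, the mean over probe sets, no shared probe set types, other eBayes settings, label batch as a block, leaving out label batch 3, and leaving out each array.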

Additional observations from a re-analysis of the deposited data

How the results depend on the processing

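Counts of the 8 genes called changed by over 1.5 times as follows. In cortical collecting duct 1 was called, against 2 with the mean over probe sets, 0 without the x, s and a types, 0 with label batch as a fixed block and 0 without label batch 3, and 0 to 2 with 1 array left out. In early proximal tubule 3 were called, against 0 with the block and 0 without batch 3, and 1 to 4 with 1 array left out. In ureteral smooth muscle 1 was called, against 0 without those types. In urothelium 1 was called, against 2 with the mean over probe sets and 0 with the block. For ureter against kidney 1 was called, against 0 with the block and 0 without batch 3, and 1 to 2 with 1 array left out. Over the 6 pairs 10 were called, against 6 without those types, 5 with the block and 4 without batch 3. Leaving out batch 3 leaves 1 tubule and 1 duct array. With the block, 0 of 13614 genes were called in urothelium, 0 in ureter against kidney and 3 in cortical collecting duct. A call lost there is thus not particular to these genes. Gadd45b in early proximal tubule reversed to 0.24 without those types, which leaves another probe set. The causes of the other changes were not tested. Label batch as a random block gave a correlation of 0.0268. No paired analysis was possible because the replicate numbers follow accession order and pair no samples; label batch, which holds arrays of several compartments, was fitted as a block instead. The signal of dim probe sets limits what can be said of their differences and spread. These are Fos outside urothelium, Fosb, Junb, Atf3 in part of the arrays, Gadd45b probe sets 1450971_at and 1420197_at in muscle, and Cryab in the tubule.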

Other observations

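Interstitial markers, 6 genes, summed to 12350 to 49070 in urothelium, 185500 to 199700 in ureteral smooth muscle, 16600 to 33290 in cortical collecting duct and 5973 to 12940 in early proximal tubule, where Hspa1b was lowest. Podocyte markers, 4 of 5 annotated, summed to 2492 to 12800 in urothelium and 2300 to 11900 in the other 3 compartments. Schwann cell and neuron markers, 3 of 5 annotated, summed to 342 to 1707 in urothelium and 341 to 1993 in the others, and red cell markers, 4 of 6 annotated, to 1529 to 2101 in urothelium and 507 to 2077 in the others. Their part in the differences of Fos, Gadd45b and Hspa1b was not tested.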
